A study of Mus musculus with 1002 samples.

Results

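The cells described here are hair cells of the postnatal mouse utricle with very high levels of Spp1, the gene of the secreted phosphoprotein osteopontin. They were chosen by measured values. A well labelled as passed counted as a hair cell if at least 4 of the 6 genes Pou4f3, Myo15, Otof, Ptprq, Espn and Cib2 reached 10 CPM (reads of a gene scaled to a common library total), and as a member if Spp1 was also at 1000 CPM or more and Ocm under 50 CPM. By this rule 38.8% of the passed wells were hair cells and 45.8% of the hair cells (exact binomial 95% interval 40.4 to 51.3) were Spp1-high. By postnatal day (P) and genotype, the members were 84 cells of P6 wildtype, 32 of P4 wildtype, 20 of P6 Pou4f3-DTR, 7 of P2, 6 of P4 Pou4f3-DTR and 4 of P4 Atoh1-EGFP, and the totals over all groups stand with the processing steps. The other hair cells comprised 43 Ocm-positive cells (Ocm at 50 CPM or more, 12.9% of hair cells), the Atoh1-positive cells (Atoh1 at 50 CPM or more, Ocm below 50, 30.2%) and 37 remaining cells (11.1%). Passed wells outside the rule are called non-hair wells.

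Cells were sorted by FACS, 1 cell per well. Their libraries were made by Smart-seq2, which covers whole transcripts but has no molecular identifiers. All mice had a mixed C57BL/6 and FVB background, and the 6 groups were Atoh1-EGFP;Pou4f3-DTR at postnatal day 2 (P2), Atoh1-EGFP, Pou4f3-DTR and wildtype at P4, and Pou4f3-DTR and wildtype at P6. EGFP is a green fluorescent reporter, DTR is the receptor for diphtheria toxin, and Atoh1 and Pou4f3 are hair cell transcription factors. The labels name no animal, toxin, construct or sorting gate, so each group counted as 1 sample, no difference below has a test, and intervals cover counting error only.

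The utricle senses gravity and linear head movement. Its hair cells carry a bundle of actin-filled stereocilia, where tip links open mechanotransduction channels, and release glutamate at ribbon synapses. Type I hair cells are enclosed by a calyx-shaped nerve ending and hold a large resting potassium conductance, type II cells contact bouton endings, and cells of the striola, a central stripe of the organ, express the calcium buffer oncomodulin (Ocm). Osteopontin is a calcium-binding matrix protein best known from bone and is used as a label of type I vestibular hair cells. Atoh1 marks hair cells early in their differentiation.

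The name type I was checked against a list of 15 type I markers, and the list was mixed. Measured here means 10 CPM or more on either side, and higher or lower means at least 1.5-fold between summed reads. Of 10 measured genes, 5 were higher in the members than in the other hair cells (Spp1, Kcna10, Cib3, Atp2b2 and Adam11), 3 were lower (Pvalb and Chgb among them) and 2 lay between, with a median log2 difference of 0.32. Over all 9910 genes measured in that comparison, 17.4% were higher, 25% were lower and the median was -0.10. These shares are the background for every list below that is set against all other hair cells. Against the Ocm-positive cells 3 of 8 measured type I genes were higher and 4 lower, beside 29.5% higher and 20.7% lower over all 9671 genes and medians of -0.34 for the list and 0.08 for all genes. Because Spp1 itself chose the cells and the list is split, the cells are called Spp1-high here and not type I.

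Passed wells held between 89774 and 1317136 reads. The members summed to 84232747 reads, with a median of 555692 per cell, against 523359 in the other hair cells. The median number of genes with a read was 3678 in members and 4363 in other hair cells, and 3166 against 3820 after each cell was thinned to 80000 reads. Mitochondrially encoded genes took a median of 2.21% of reads in members and 3.05% in other hair cells. Supporting cell markers, at least 5 of them, were read in 9 members (5.88%), 29 other hair cells (16.02%) and 62.2% of non-hair wells. Their part in the differences below was not tested.

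Spp1 (chr5:104435118-104441050, GRCm38) stood at 32195 CPM in the summed reads of members, 3.22% of all their reads. The lowest member had 1437 CPM, the median 30777 and the highest 116426. In the other hair cells the summed level was 3571 CPM, nearly all of it from the Ocm-positive cells at 15420 CPM, while Atoh1-positive cells had 8.29 and remaining cells 106.6 CPM. These values chose the cells and describe them only. Few cells lay near the threshold: 2 members had under 2000 CPM, at 1437 and 1833, and 3 hair cells with Ocm under 50 CPM were just outside, between 508.8 and 847.7 CPM. Of the hair cells with Ocm under 50 CPM, 38.8% had no Spp1 read, 25 cells (8.59%) had some reads below 1000 CPM and 52.6% were members. Ocm reads occurred in 5 members, at 2.48 to 48.2 CPM, and 8 cells with Spp1 above the threshold were just outside with Ocm between 58.4 and 199.4 CPM.

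**Figure D1:**
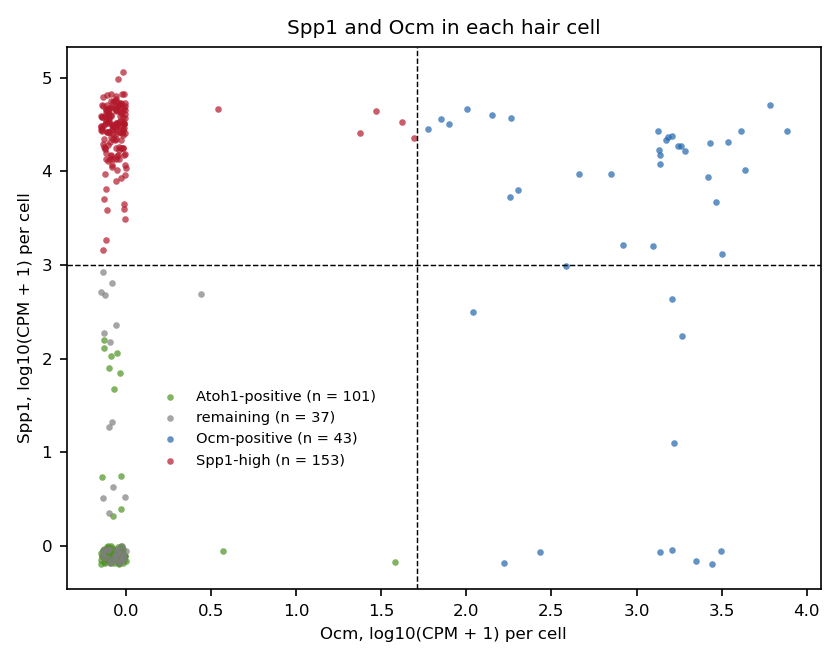
Spp1 (vertical axis) against Ocm (horizontal axis) in each hair cell, both as log10(CPM + 1), with points at 0 spread for visibility and dashed lines at the thresholds of 1000 and 50 CPM. The Spp1-high cells form 1 group at the upper left, apart from the cells with no Spp1 read, and 31 of the 43 Ocm-positive cells also reach 1000 CPM of Spp1, with a median of 18808 CPM against 30777 CPM in members.

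The other genes of the rule were not equal between the classes. Ptprq, a receptor phosphatase of the shaft connectors at the stereocilia base, was at 4044 CPM in members and 1874 CPM in other hair cells. Espn, an actin-bundling protein of stereocilia, was at 897.7 and 391.6 CPM. Cib2, a calcium- and integrin-binding protein of the transduction complex, was 6.79-fold lower in members, at 128.9 against 874.9 CPM. Pou4f3 (840 and 1094 CPM), the stereocilia tip motor Myo15 (836.5 and 752.9) and the synaptic calcium sensor Otof (1998 and 1858) differed by less than 1.5-fold. All 6 genes reached 10 CPM in 87 members (56.9%), 5 did in 58 and 4 did in 8, against 86.2%, 9.94% and 3.87% of the other hair cells.

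Of the marker genes given for this class, the potassium channel gene Kcna10 and Cib3 were not part of the rule. Kcna10 (chr3:107183056-107195721) was at 1731 CPM in members, with a lowest cell at 0, a median of 1614 and a highest cell of 4988 CPM. It had reads in 96.7% of members, 66.3% of other hair cells and 2.66% of non-hair wells, and after thinning in 96.1% of members and 64.1% of other hair cells. Its level in the Ocm-positive cells, 1540 CPM, was close to that in members, and the low class was the Atoh1-positive cells at 107.5 CPM. Kcna10 therefore did not separate members from Ocm-positive cells.

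Cib3 (chr8:72204335-72212837), a relative of Cib2 that also binds the transduction channel, did separate them. It was read in every member, from 154.9 to 6299 CPM with a median of 2141, and in 5 of 43 Ocm-positive cells. Summed levels were 2247 CPM in members, 116.8 in Ocm-positive, 914.6 in Atoh1-positive and 1368 in remaining cells, and 3.42% of non-hair wells had a read. Ocm-positive and member cells thus lay at opposite ends for Cib3, with the other classes between. Among the 31 Ocm-positive cells with Spp1 at 1000 CPM or more, which differ from members only in Ocm by the rule, Cib3 was read in 4, at 153.3 CPM in summed reads, while Kcna10 was at 1820 CPM.

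The pair Cib2 and Cib3 was then compared within each cell, per length, because full-length reads scale with the transcript (exon lengths of 1433 bases for Cib2 and 2014 for Cib3 in GENCODE). Per kilobase, Cib3 was at 1116 CPM and Cib2 at 89.9 CPM in members, and Cib3 at 58.01 and Cib2 at 601.7 CPM in Ocm-positive cells. Cib3 exceeded Cib2 in 150 members (98.04%, exact binomial 95% interval 94.4 to 99.6). It did so in 3 of 43 Ocm-positive cells (6.98%, 1.46 to 19.1), 30 Atoh1-positive cells (29.7%, 21.02 to 39.6) and 24 of 37 remaining cells (64.9%, 47.5 to 79.8). Both genes belong to the same family of partners of the TMC channel, and Cib2 is a rule gene, so its share is partly set by the choice of hair cells.

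**Figure D2:**
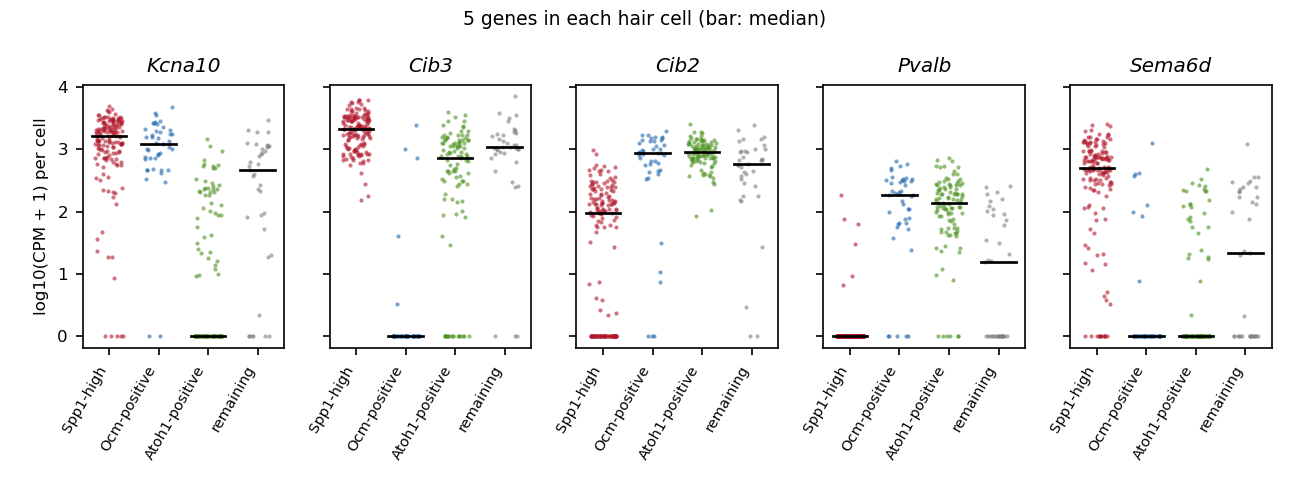
Each hair cell's level of Kcna10, Cib3, Cib2, Pvalb and Sema6d as log10(CPM + 1), by class, with a bar at the median. Spp1-high cells are high in Kcna10, Cib3 and Sema6d and lack Pvalb in all but 6 cells, and Ocm-positive cells match them in Kcna10 only.

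In the mechanotransduction list, which also holds Cib3, Cib2 and the rule gene Myo15, 5 of 15 genes were higher in members, 4 were lower and 6 lay between. Cib3 is counted among the higher. The median log2 difference was 0.11, beside 17.4% higher and 25% lower over all genes. Tmc1 and Tmc2, which form the channel pore, were at 171.5 and 95.8 CPM in members against 94.4 and 32.5 in other hair cells. Tmc1 was at 36.99 CPM in the Ocm-positive cells. Tomt, which is needed to bring the channel to the bundle, was at 679.4 against 388.5 CPM, and the scaffold Ush1c at 281.8 against 125.9 CPM. Lower were Lhfpl5, a channel subunit (205.2 and 614.8 CPM), and the tip-link cadherins Pcdh15 (52.7 and 171.03) and Cdh23 (157.8 and 275.7), besides Cib2. Genes of the same complex therefore lay on both sides.

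For the stereocilia, 10 of 29 measured genes were higher and 8 lower, beside 17.4% higher and 25% lower over all genes. The actin crosslinkers Fscn2 (491.03 and 221.7 CPM) and Pls1 (1273 and 816.4 CPM) and the cross-linker-associated gene Xirp2 (826.8 and 375.9 CPM) were higher. Espn and Ptprq are also counted among the higher, and both are genes of the rule that chose the hair cells. The tip motor Myo3a (35.96 and 154.02 CPM) and Tprn, a protein of the taper (7.99 and 62.5 CPM), were among the lower. The list as a whole had a median log2 difference of 0.18.

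Of 20 ribbon synapse genes 6 were higher and 6 lower, beside 17.4% higher and 25% lower over all genes. Slc17a8, the vesicular glutamate transporter of hair cells, was at 201.8 CPM in members and 70.995 CPM in other hair cells, and Cabp2, a calcium-binding protein that shapes calcium channel gating, at 1849 and 1025 CPM. Snap25 was at 71.3 and 148.4 CPM. Syt4 was read in 1 member and 42 other hair cells, at 0.15 and 32.1 CPM.

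The list of potassium and related channels gave 5 higher and 2 lower genes of 10, median log2 0.56. Kcnma1, the large calcium-activated channel, was 3.44-fold higher (124.4 and 36.2 CPM), and Kcnh7 was at 286.5 and 154.8 CPM.

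Calcium handling was split. The plasma membrane pump Atp2b2 was 3.87-fold higher in members (985.3 and 254.9 CPM), the endoplasmic reticulum pump Atp2a2 was at 95.8 and 33.2 CPM, and Calm2, 1 of the calmodulin genes, at 10751 and 7070 CPM. Of the calcium buffers, Pvalb (3.05 and 156.7 CPM), Calb1 (30.6 and 211.6 CPM) and Calb2 (132.7 and 253.7 CPM) were lower in members than in the other hair cells together. Pvalb (chr15:78191114-78206400), parvalbumin, was read in 6 members (3.92%) and 83.98% of other hair cells, or 3.27% and 82.3% of cells after thinning. By class, Calb1 was at 848.7 CPM in Ocm-positive, 82.4 in remaining and 0.84 CPM in Atoh1-positive cells, so members were above the last of these. Calb2 was at 92.6 CPM in Ocm-positive cells, below the members. Over the 16 measured genes 5 were higher and 6 lower.

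The lists for the classes left out of the members gave counts that differed with the class set against them. Against all other hair cells, in the type II list 1 of 7 measured genes was higher (the Notch-like ligand Dner, 401.7 and 247.1 CPM) and 4 were lower, among them Anxa4 (78.9 and 541.6 CPM), Calb2, Mapt and Sox2. In the striolar list 5 of 7 were lower, median log2 -2.20, and Cabp2 was higher. Ocm is among those lower genes only because the rule held it under 50 CPM in members. For the immature list 6 of 9 were lower, median log2 -3.24, with Atoh1 at 13.4 against 528.8 CPM, Hes6 at 21.97 against 207.97, Mfng at 4.46 against 137.4 and Dll3 at 0.84 against 68.5. The exceptions were Dll1 (90.5 and 52.4 CPM) and Gfi1 (387.2 and 230 CPM). The Atoh1-positive cells are 55.8% of the other hair cells. Against them alone the striolar list turned: 5 of 6 measured genes were higher and 1 lower, median log2 2.17, beside 21.6% higher and 31.6% lower over all 10084 genes. Calb1, Car8 (13.7 and 1.17 CPM) and Lce6a (21.1 and 2.60 CPM) were among the higher, and Rprm, with no read in members and 72.8 CPM in Atoh1-positive cells, was the lower. Against Ocm-positive cells the striolar list had 4 of 6 genes lower, with Ocm again among them by the rule. The type II list had 2 of 5 higher and none lower (median log2 0.52), and the immature list 2 of 9 higher and 3 lower (median log2 -0.03). Over all 9671 genes measured against Ocm-positive cells 29.5% were higher and 20.7% lower, so the immature list was near these shares.

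Transcription factors of hair cells followed the same split: 2 of 16 measured genes were higher and 9 lower. Prox1 was at 48.97 CPM in members, 14.96 in other hair cells and 0 in Ocm-positive cells. Isl1 was at 5.84 CPM in members, 115.5 in other hair cells and 354.9 in Ocm-positive cells. Barhl1 (5.33 and 59.4 CPM) and Nhlh1 (5.41 and 70.1 CPM) were lower in members than in other hair cells. Rasd2 (34.4 and 453.4 CPM) and Ccer2 (324.3 and 2681 CPM), genes of the wider hair cell list, were also lower, and the small muscle-type protein gene Smpx was at 1342 and 902.4 CPM.

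Other fixed lists gave smaller or one-sided counts. In the Notch pathway list 2 of 12 genes were higher and 6 lower. The cell cycle inhibitor Cdkn1a was at 16.3 against 198.002 CPM and Cdkn1b at 15.8 against 52.2 CPM. In the immediate early and heat shock list 3 of 11 were higher and 6 lower: Fos (182.4 and 477.3 CPM), Egr1 (156.7 and 484.1) and Ier2 (29.9 and 305.1) were lower, and the heat shock genes Hspa1a (35.2 and 4.95), Hspa1b (44.6 and 4.97) and Dnajb1 (188.8 and 113.7) were higher. No other gene of the family of phosphoglycoproteins that includes osteopontin had reads at 10 CPM in hair cells. Of the osteopontin receptors, Itgb1 was at 38.1 CPM in members and 202.1 CPM in non-hair wells, and the kinase Fam20c, which phosphorylates secreted proteins, was at 13.4 and 106.1 CPM. The alpha-9 and alpha-10 nicotinic subunits, receptors of the efferent nerve, were at 231.8 (Chrna9) and 831.1 CPM (Chrna10) against 223.6 and 432.2 CPM.

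Markers of other cells were low in members. Summed levels over a list in members, other hair cells and non-hair wells were 725.6, 836.1 and 7928 CPM for supporting cells, 27.5, 128.5 and 8775 CPM for non-sensory epithelium and 1.97, 2.98 and 883.5 CPM for mesenchyme. Of the mesenchyme list 5 of 10 genes had no read in members, Col1a1 and Col3a1 among them. The neuron list was at 3533 CPM in members, of which Nefl (1856 CPM) and Nefm (1604 CPM), neurofilament genes that are also read in the other hair cells (924.9 and 975.5 CPM), made up nearly all, while Tubb3, Prph, Gap43 and Slc17a7 had no read.

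Over all genes, 6.35% were at least 2-fold higher in members than in other hair cells and 8.77% were at least 2-fold lower, of 4583 genes at 50 CPM or more with reads in at least 25% of cells of the higher side. Of these, 63.9% of the higher and 71.1% of the lower genes kept their direction in each of the 6 combinations of group and sequencing pool with at least 10 cells on both sides, and passed the filters on names. The median log2 difference of all tested genes was -0.09. These are the genes that go with the choice of the cells, so no test is given.

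Ranked by fold, the 15 largest higher genes included Spp1 itself. Dusp26, a dual-specificity phosphatase, was 21.4-fold higher (72.95 and 3.41 CPM) with reads in 49 members and 4 other hair cells. Krt23, a keratin, was at 154.1 and 7.53 CPM. The adhesion receptor gene Adgrd1 was at 212.5 and 12.4 CPM, and Synpr (chr14:13284780-13616340), a synaptic vesicle membrane protein, at 258.6 and 15.4 CPM, with reads in 96 members and 14 other hair cells. Syt12 (99.2 and 6.53 CPM), Slc17a2 (65.6 and 3.90), Mei1 (62.04 and 4.07), Gas2l3 (53.1 and 3.65) and Stat5b (80.8 and 7.16) were also among them. Synpr was read in 62.7% of members, and the median member was at 0 for Dusp26 and Krt23. Dhrs3 and Sema6d were read in most members.

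Dhrs3 (chr4:144892827-144928209), a retinaldehyde reductase of vitamin A metabolism, was at 1412 CPM in members and 130 CPM in other hair cells, a 10.8-fold difference. It was read in 92.8% of members, with a median of 1156 CPM, and in 50 other hair cells (27.6%). Ocm-positive cells had 159.3 CPM and read it in 7 of 43, Atoh1-positive cells had 50.5 and remaining cells 332.5 CPM. It is not particular to hair cells, since 53.5% of non-hair wells had a read.

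Sema6d (chr2:124089969-124667770), a transmembrane semaphorin, was at 655.4 and 67.8 CPM and read in 92.8% of members and 58 other hair cells (32.04%). Its level was 69.3 CPM in Ocm-positive and 31.8 CPM in non-hair wells. The secreted ligand gene Wnt5a was at 118.9 CPM in members, 9.29 in other hair cells and 106.1 CPM in non-hair wells, and Neat1, a long noncoding RNA of paraspeckles, at 186.1, 20.4 and 110.9 CPM. Trim9, a ubiquitin ligase of neurons, was at 114.01 and 12.3 CPM.

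**Figure D3:**
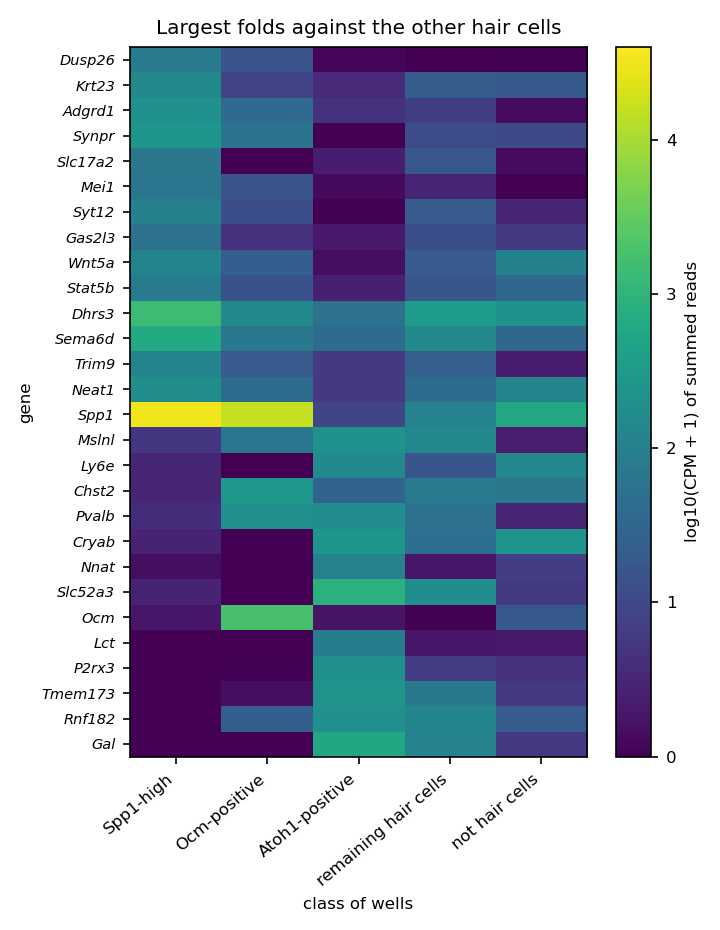
Levels of genes with the largest folds against the other hair cells, higher ones above and lower ones below, as log10(CPM + 1) of summed reads in 5 classes of wells. Most lower genes are bright in the Atoh1-positive column, while Ocm and Chst2 are brightest in the Ocm-positive column. Pvalb is bright in both, at 205.5 CPM in Ocm-positive and 172.6 CPM in Atoh1-positive cells.

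Several of the 15 lower genes had no read in members. Gal, the neuropeptide galanin, Tmem173 (known as STING), the ATP-gated channel gene P2rx3 and Lct, lactase, were read in no member, against 340.5, 153.1, 124.5 and 51.1 CPM in other hair cells. Gal was read in 67 other hair cells and was highest in Atoh1-positive cells (554.5 CPM). The riboflavin transporter gene Slc52a3 was read in 4 members (2.61%) and 63.5% of other hair cells, at 1.91 and 543.5 CPM, with 883.01 CPM in Atoh1-positive and 179.2 CPM in remaining cells and no read in Ocm-positive cells. Rnf182 (0.02 and 153.96 CPM), Nnat (0.51 and 61.8), Cryab (1.75 and 161.5), Ly6e (1.97 and 94.4) and Mslnl (4.29 and 172.1) were also lower. Chst2, a sulfotransferase, was at 1.94 CPM in members, 286.5 CPM in Ocm-positive and 28.7 CPM in Atoh1-positive cells.

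Against the Ocm-positive cells alone, 10.2% of 4314 genes were at least 2-fold higher in members and 7.02% at least 2-fold lower. Against the Atoh1-positive cells 10.5% of 4841 genes were higher and 15.1% lower. The classes were defined by the value of Ocm or Atoh1, so the counts describe them.

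The 37 remaining hair cells, with Atoh1 and Ocm under 50 CPM and Spp1 under 1000 CPM, were intermediate for several genes. Ptprq was at 1194 CPM in Atoh1-positive, 2815 in remaining and 4044 in member cells, and Kcna10 at 107.5, 673.03 and 1731 CPM. Calb2, in contrast, was highest in the remaining cells (377.4 CPM) and lowest in Ocm-positive cells (92.6 CPM). Ccer2 was at 3780, 2263 and 324.3 CPM in Atoh1-positive, remaining and member cells. No order in time is implied.

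Spp1 level and other genes were also described along the range of Spp1. Among members, the 2 cells from 1000 to 3000 CPM and the 10 from 3000 to 10000 CPM had Ccer2 at 1772 and 1048 CPM, against 385.7 CPM in the 60 cells from 10000 to 30000 CPM and 149.2 CPM in the 81 above. Calb2 was at 444.2, 274.1, 117.7 and 118.3 CPM over the same ranges. Kcna10 was at 701.9, 852.7, 1502 and 2039 CPM. The low ranges held few cells.

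Over all hair cells, the genes whose level per cell was most like that of Spp1 by Spearman rho, among 5991 genes read in at least 25% of hair cells, were Kcna10 (0.71), Calm2 (0.68), Cfap161 (0.66), Dhrs3 (0.65), Ptprz1 (0.64), Atp2b2 (0.64), Fbxo2 (0.63), Ptprq (0.62), Cst6 (0.62) and Car7 (0.61). The most opposite were Tox (-0.78), Ccer2 (-0.77) and Psat1 (-0.75). The cells share libraries and differ in class and depth. Within the members, Calm2 had 0.69, Car7 0.45, Kcna10 0.30, Cib3 0.18 and Ptprq -0.02, while Tox had -0.57 and Ccer2 -0.47. The median absolute rho of all genes within members was 0.08, and Spp1 had -0.01 with reads per cell.

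The share of hair cells that were Spp1-high differed little between most groups. It was 50% of the hair cells at P6 in wildtype (84 cells against 84 others, interval 42.2 to 57.8), 51.6% of 62 at P4 in wildtype (32 cells, 38.6 to 64.5) and 40.8% of 49 in P6 Pou4f3-DTR (20 cells, 26.997 to 55.8). P4 Pou4f3-DTR had 6 of 14 (42.9%, 17.7 to 71.1), P4 Atoh1-EGFP 4 of 19 (21.1%, 6.05 to 45.6) and P2 Atoh1-EGFP;Pou4f3-DTR 7 of 22 (31.8%, 13.9 to 54.9). All 6 intervals share values. Within P6 wildtype the sequencing pools had 42.6%, 48.9%, 60.5% and 51.6% (pools 1, 4, 5 and 6), and the P6 Pou4f3-DTR pools had 44.8% and 35% (pools 1 and 2). In pool 1, which held both genotypes, the shares were thus 42.6% in wildtype and 44.8% in Pou4f3-DTR.

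The reverse transcriptase named in the labels moved with the share. Of the cells made with smartscribe 11 of 44 hair cells were members (25%, 13.2 to 40.3), against 48.97% with maxima (43.08 to 54.9). The wells of P4 Pou4f3-DTR and of P4 Atoh1-EGFP were all made with smartscribe, so group and enzyme cannot be told apart there. P2 held both: 6 of 11 hair cells with maxima (54.5%) and 1 of 11 with smartscribe (9.09%). The P2 wells also carried different well volumes in their labels, and only passed wells are counted. The part of volume and of failed wells in this difference was not tested.

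**Figure D4:**
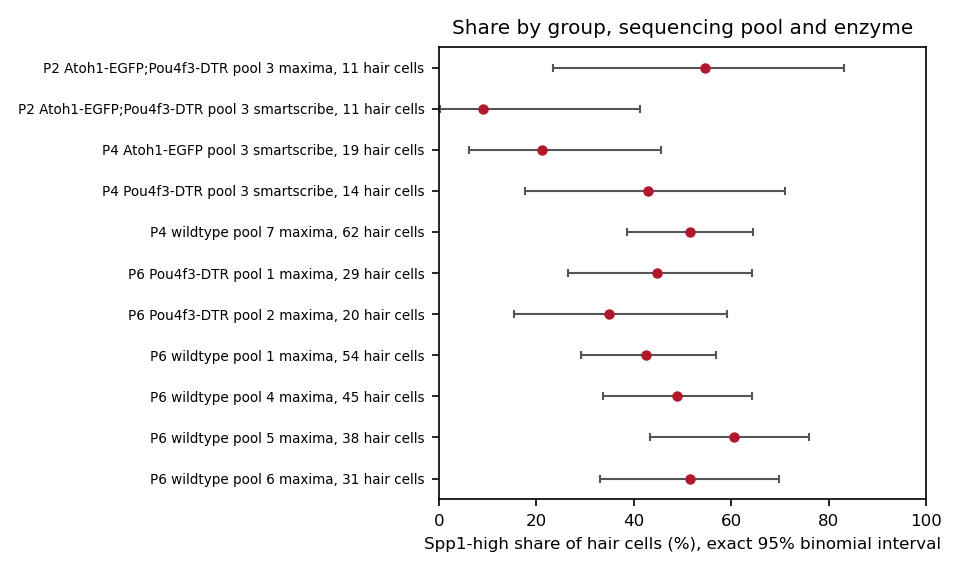
Share of hair cells that were Spp1-high, in percent, for each combination of group, sequencing pool and enzyme, with exact 95% binomial intervals. All the maxima sets lie between 35% and 60.5%, and the smartscribe sets between 9.09% and 42.9%.

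Levels within members also differed between groups. Spp1 in summed reads was at 27639 CPM in wildtype members of P4 and 30377 CPM in those of P6. It was at 35226 CPM in Pou4f3-DTR members of P4 and 45117 CPM in those of P6, at 40712 CPM with Atoh1-EGFP at P4 and at 22673 CPM with both alleles at P2. The per-cell medians ran from 19865 at P2 to 46387 in P4 Atoh1-EGFP, and the per-cell ranges overlapped between all groups. Ptprq was at 1431 CPM at P2, at 2338 (Atoh1-EGFP), 3411 (Pou4f3-DTR) and 3661 CPM (wildtype) at P4, and at 3739 (Pou4f3-DTR) and 4565 CPM (wildtype) at P6. Its per-cell ranges also overlapped, and P2, the lowest, went up to 2870 CPM per cell, while the lowest P6 wildtype cell was at 1249 CPM. Atp2b2 was at 290.6, 144.7 and 202.1 CPM in the 3 groups of pool 3 (P2, then Atoh1-EGFP and Pou4f3-DTR at P4) and 834.04, 1040 and 1170 CPM in P4 wildtype, P6 Pou4f3-DTR and P6 wildtype. Tmc1 was at 32.2, 29.5 and 55.1 CPM in the former and 100, 192.4 and 222.7 CPM in the latter. Slc17a8 ran the other way in those pool 3 groups (399.2, 796.7 and 304.3 CPM), against 149.1, 56.3 and 230.9 CPM. P4 stood on both sides, and pool 3 held no wildtype members. Of the 7 members at P2, 6 were made with maxima, as were all members outside pool 3. Pool cannot be told apart from genotype and, in the P4 groups, from enzyme, and none of these was tested.

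The genotypes were compared within members at P6, 20 Pou4f3-DTR against 84 wildtype cells. At 2-fold, 7.75% of 4325 genes were higher in Pou4f3-DTR members and 17.4% lower, and within pool 1 alone 12.7% and 21.9% of 4280 genes. At 1.5-fold, over genes at 10 CPM or more, 21.8% were higher and 37.8% lower, with a median log2 difference of -0.21, so counts of lower genes are read beside that shift. The Pou4f3-DTR members gave 13004066 summed reads and the wildtype members 42403260. Mitochondrially encoded genes were at 3.97% of summed reads in Pou4f3-DTR and 2.0% in wildtype members, and 3.70% and 2.72% within pool 1, and their part in the difference was not tested.

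The 15 genes with the largest folds over other hair cells did not all differ in the same direction between the genotypes. Sema6d, Krt23 and Dusp26 were lower in Pou4f3-DTR than in wildtype members. Sema6d was at 187.4 and 241.3 CPM in the 2 Pou4f3-DTR pools and at 790, 621.7, 941.8 and 708.9 CPM in the wildtype pools, with a log2 difference of -1.91. The pool values did not overlap, and within pool 1 the difference was -2.08. Single cells did overlap, from 0 to 929.3 CPM in Pou4f3-DTR and from 0 to 2540 CPM in wildtype, with medians of 151.4 and 662.6 CPM. Slc17a8 was at 68.8 and 38.02 CPM in Pou4f3-DTR pools and between 180 and 301.6 CPM in the wildtype pools. Dusp26, at 6.87 and 13.05 CPM in Pou4f3-DTR pools and 56.7 to 98.9 CPM in wildtype pools, had a log2 difference of -3.05. Krt23 was at 31.6 and 26.5 CPM against 74.6 to 283.9 CPM, with a log2 difference of -2.67. The pools of Slc17a8, Dusp26 and Krt23 did not overlap either, but Dusp26 and Krt23 were each read in 3 of the 20 Pou4f3-DTR cells. Syt12 went the other way, at 182.7 and 190.8 CPM in the Pou4f3-DTR pools and 78.4 to 114.1 CPM in the wildtype pools (log2 1.07). Stat5b was also higher (log2 0.83) and Trim9 and Neat1 were lower (log2 -0.60 and -0.95), but their pools overlapped. Synpr (262.4 and 295.9 CPM) differed by less than 1.5-fold, as did Spp1, Adgrd1, Slc17a2, Mei1, Gas2l3, Wnt5a and Dhrs3.

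Spp1 was at 42771 and 48542 CPM in the Pou4f3-DTR pools and between 23406 and 39003 CPM in the wildtype pools. Calm2 was at 15949 and 18791 CPM against 7296 to 15003 CPM. Kcna10, at 1554 and 2828 CPM, lay on both sides of the wildtype pools at 1645 to 1859 CPM, and Cib3, at 1555 and 2562 CPM, overlapped the wildtype range of 2158 to 2756 CPM. Otof was at 726.6 and 972.5 CPM against 910 to 2969 CPM, and these ranges overlapped. Espn, at 706.4 and 369.6 CPM, was below all wildtype pools at 734.2 to 1236 CPM, but its log2 difference within pool 1 was only -0.13.

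**Figure D5:**
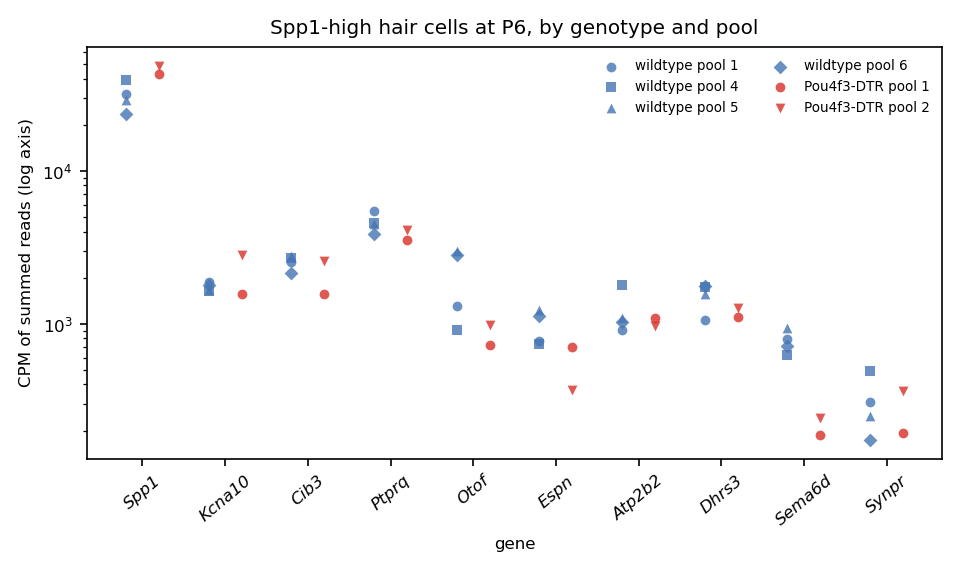
Summed CPM on a log axis of 10 genes in the Spp1-high cells of P6, wildtype pools in blue and Pou4f3-DTR pools in red, 1 point per pool. Spp1 is above all wildtype pools, and Sema6d and Espn are below all of them, in both Pou4f3-DTR pools. Kcna10, Cib3, Ptprq, Otof, Atp2b2, Dhrs3 and Synpr overlap.

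Hair cell transcription factors were on the lower side in Pou4f3-DTR members: none of 11 measured genes was higher and 9 were lower, with a median log2 difference of -1.49 (-2.14 within pool 1), against 37.8% lower in all genes. That count includes sparse genes near the 10 CPM limit. Atoh1, Isl1, Tbx2 and Mycl were at 10.8 to 18.6 CPM in wildtype members and read in at most 14 of 84 of them. Gfi1, a repressor needed by hair cells, was at 138.96 against 391.5 CPM, Lhx3 at 81.4 against 218.4, Rfx3 at 64.4 against 137.7 and Prox1 at 1.31 against 78.5 CPM, the last read in 1 of 20 and 23 of 84 cells. The pools differed. Gfi1 was at 49.4 CPM in pool 1 and 269.7 CPM in pool 2 of Pou4f3-DTR, both below the wildtype pools at 317.4 to 569.1 CPM, and Prox1 was also below them in both. Rfx3 was at 19.4 and 129.9 CPM, and its pool 2 value lay within the wildtype range of 110.2 to 162.7 CPM. Lhx3 was at 58.96 and 114.2 CPM, the latter within the wildtype range of 74.8 to 312.9 CPM. Zbtb20 was at 80.7 and 357.6 CPM, below and above the wildtype range of 126.2 to 311.996 CPM. Pou4f3 itself, whose name the transgene carries, was at 746.997 and 771.1 CPM. In the mechanotransduction list 2 of 15 were higher and 7 lower, and Tmc2 was at 20.5 against 101.7 CPM. In the immature list none of 6 was higher and 5 were lower. Mitochondrially encoded genes were higher in 13 of 14. In the type I list 4 of 10 measured genes were higher and 1 (Chgb) lower, beside 21.8% higher and 37.8% lower over all genes. Its median log2 difference was 0.53 (0.42 within pool 1). Adam11 was at 358.8 and 494.8 CPM in the Pou4f3-DTR pools, above the wildtype pools at 48.03 to 166.9 CPM. Kcnab1, at 213.04 and 165.5 CPM, was also above them (26.6 to 83.5 CPM). Pvalb and Tnfaip2, also higher, were read in 1 of 20 Pou4f3-DTR cells each.

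The ribbon synapse list had 1 of 16 higher and 7 lower, beside 21.8% higher and 37.8% lower over all genes. Otof, whose pools overlapped, and Slc17a8 were among the lower. In the list of otoconial and acellular matrix genes 7 of 8 were higher, median log2 2.17: Otog, a protein of acellular membranes, was at 502.9 against 59.9 CPM and Sparcl1 at 267.8 against 29.2 CPM. Otog and Sparcl1 are also made by supporting cells. In the list of supporting cell markers 5 of 9 measured genes were higher and 2 lower. The level rested on few cells: Otog was read in 5 of 20 Pou4f3-DTR and 9 of 84 wildtype members, was at or above 100 CPM in 4 and 5, and 1 cell held 38.2% of its reads in Pou4f3-DTR. It was at 847.4 CPM in pool 1 and 0.19 in pool 2. At least 5 supporting cell markers were read in 3 of 20 and 6 of 84 members. The per-cell sum of the list ran from 0 to 6782 CPM (median 386.9) and from 0 to 5478 CPM (median 491.5). Without the members with Otog at 100 CPM or more, an alternative added after the values were seen, 10.4% of genes were higher and 18.3% lower at 2-fold. The part of supporting cell RNA in the matrix values was not tested.

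By fold, the 10 genes largest on the higher side in Pou4f3-DTR members, each with that direction also within pool 1, were Zfp709 (265.8 and 2.69 CPM), Gabpb1 (55.4 and 3.35), Itgb7 (71.98 and 7.52), Prorsd1 (132.96 and 15.7), Otog, Crh (121.3 and 15.1), Fkbp3 (137.2 and 17.2), Ppat (126.7 and 16.5), Btg2 (373.7 and 49.4) and Pde4a (52.2 and 8.51). Each was read in at most 9 of the 20 cells, and 1 cell held 87.5% of the Fkbp3 reads. Btg2, an antiproliferative gene, was read in 8 of 20 and 16 of 84 cells. On the lower side were Slc25a29, a mitochondrial amino acid carrier (0 and 146.1 CPM, read in 0 of 20 and 33 of 84 cells), Bhlhb9 (0.08 and 106.7), Lrp11 (0 and 99.6), Col6a4 (0 and 92.8), Gpkow (0 and 79.6), Pde4b (0.08 and 68.3), Lrrc28 (0.15 and 64.6), Cyb5r1 (0 and 62.5), Cep131 (0 and 62.4) and Rce1 (0 and 57.5).

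Wildtype members were compared between P4 (32 cells, pool 7) and P6 (84 cells, pools 1, 4, 5 and 6). At 2-fold, 6.09% of 4414 genes were higher at P4 and 6.57% lower. Age and pool cannot be told apart. Tmc1 was at 100 CPM at P4 and between 209.5 and 232.3 CPM in the P6 pools. Anxa4 was at 117.4 CPM against 32.97 to 68.3 CPM. The values at P4 were outside the range of the 4 pools for both genes. Spp1 (27639 and 30377 CPM), Sema6d (782.9 and 786.6 CPM) and Dhrs3 (1565 and 1522 CPM) were close, and Ptprq was at 3661 and 4565 CPM. The largest folds were Kcnb2, a potassium channel gene (77.4 and 8.99 CPM), on the higher side, and Far1 (0 and 80.6 CPM) and Ints11 (0 and 72.8 CPM) on the lower side.

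The deposited table has an entry for the transgene, Pou4f3DTR. It was read in 3 of 20 P6 Pou4f3-DTR members and in 15 of the 29 other hair cells of that group. Reads on it were also found in 3 of the 84 wildtype members at P6 and in 5 of the 84 other wildtype hair cells there, and in none of the members of P2 and P4. The entry therefore does not tell the genotypes apart cell by cell.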

How the data were processed

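The measurements are Smart-seq2 profiles of sorted single cells of the mouse utricle, 1002 wells in 6 groups. The authors deposited RSEM expected counts per gene and cell. STAR 2.5.3a, RSEM 1.3.0 and the build mm10 are named in the submitters' processing notes. Annotation and strand setting: not given in the sources used here, so overlapping genes and near-identical copies are uncertain. Of the nonzero expected counts 84.6% were exactly whole, and all were rounded. The deposited file held 52730 entries, of which 52636 genes gave the totals for CPM. Coordinates are from GENCODE M21 on GRCm38, in which 52403 identifiers matched. 0 columns were without a sample.

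Of the wells 861 were labelled passed, and the failed ones were left out. By the rule 334 passed wells were hair cells, of which 153 were Spp1-high and 181 were not (43 Ocm-positive, 101 Atoh1-positive, 37 remaining), and 527 wells were not hair cells. The maxima hair cells were 290, with 142 members. At 2-fold 291 genes were higher and 402 lower than in other hair cells, and 335 and 754 in Pou4f3-DTR members at P6.

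Analyses used Python 3.11.15, matplotlib 3.10.9, pandas 2.3.3, scipy 1.17.1 and numpy 2.4.6. Counts were summed over the cells of a class, with a floor of 3 counts per sum in folds. A call needed 50 CPM and reads in 25% of cells on the higher side, and 2-fold. Intervals are exact Poisson or exact binomial (Clopper-Pearson) at 95% and cover counting error only, since amplified reads are not independent molecules. The contrast was checked on simulated data. No test across samples was possible with 1 sample per group.

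Genes named by size were the 15 largest folds in each direction, or 10 for genotype and age. They had to keep their direction in every group and pool with at least 10 cells on both sides (pool 1 for genotype) and when per-cell CPM were averaged. Predicted genes, pseudogenes, sex-linked markers and ribosomal proteins were left out. Genes of 30 lists were named besides, and some items are not reported here. The members and lists were chosen with earlier results of these data known. No doublet caller was run; cells with reads on 5 or more supporting cell markers were counted instead.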

Additional observations from a re-analysis of the deposited data

Results flagged for a closer look

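Of the wells labelled failed, 5 met the rule for Spp1-high hair cells, with Spp1 between 30734 and 77924 CPM. They were left out of all values above. Outside the hair cell class 11 passed wells had Spp1 at 1000 CPM or more, from 1075 to 144431 CPM, with at most 3 of the hair cell genes at 10 CPM. In the wildtype groups, which carry no transgene by their labels, 3 Spp1-high cells had a read on the Pou4f3DTR entry.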

How the results depend on the processing

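Over the alternatives the members were 42.8% to 48.6% of hair cells (45.8% as reported), and 46.9% to 53.5% in P6 wildtype. Counts of genes depended on the filter for low values. At 10 CPM and 10% of cells 7.29% of 9298 genes were higher and 12.9% (1197 genes) lower than in other hair cells, and with no filter but the floor 16.99% (3471) and 25.2% (5138) of 20427. For genotype at P6 these settings gave 12.02% (1053) higher and 24.9% (2181) lower of 8758, and 15.4% (2500) and 36.2% (5863) of 16210, and pool 1 alone gave 12.7% higher. Changed thresholds, scalings and left-out pools gave 5.65% to 7.77% higher and 7.51% to 12.4% lower genes against other hair cells, and 6.89% to 9.87% and 15.6% to 21.9% for genotype. Of 39 named genes, 36 were at 2-fold or more, and all 36 kept that size and direction under the 10 alternatives run for them. Most of them were chosen for a large fold with a kept direction, and Spp1 and Ocm belong to the rule. That outcome was therefore largely set by the choice of genes. Leaving out the 10 members with Atoh1 at 50 CPM or more was added after the data were seen and gave 5.83% higher and 8.6% lower. No paired analysis was possible because no label names an animal and the result comes from no test.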
